A study of Mus musculus with 90 samples.

Results

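The Cyp4a fatty acid omega-hydroxylases were followed in mouse liver RNA as 6 genes, Cyp4a10, Cyp4a14, Cyp4a31, Cyp4a32, Cyp4a12a, and Cyp4a12b, taken by name from a table of 24312 gene symbols. Each gene was represented by 1 RefSeq transcript, NM_010011, NM_007822, NM_001252539, NM_001100181, NM_177406, and NM_172306 in that order. Cyp4a31 alone had a second transcript, and the values of the one used were 0.967 to 1.04 times those of the second. All 6 genes passed the filter on low values in each of the 5 experiments.

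The study asked how glucocorticoid and insulin signals together set the liver response to a meal, with mice fed only at night (night-restricted feeding, NRF) for 4 days. In the NRF experiment, 10-week-old male C57BL/6 wild-type mice (C57BL/6N in the methods) were killed at ZT10, at ZT14 without food (ZT14-unfed), or at ZT14 after food was given (ZT14-fed), with 2 mice each and ribosomal RNA depleted from the RNA. In the injected experiment, C57BL/6 mice (C57BL/6N) of the same age received vehicle and stayed unfed, or received vehicle, dexamethasone (dex, a synthetic glucocorticoid, 1 mg/kg), the insulin receptor antagonist S961, or both, and were fed, with 4 mice each at ZT14. In the L-GRKO experiment, Nr3c1 fl/fl mice on a C57BL/6 background (C57BL/6N) carried AAV8-TBG-Cre (AAV-CRE) or AAV8-TBG-GFP (AAV-GFP) and were unfed at ZT14, with 4 mice each. The virus was given to adult mice before NRF. The TBG promoter acts in hepatocytes, so that the glucocorticoid receptor (GR) of other liver cells was left in place.

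In the L-IRSdKO experiment, Irs1 and Irs2 fl/fl mice without Cre (IRS fl/fl) were compared with those carrying Alb-Cre, which acts in hepatocytes from development on, with 4 mice each. All 8 of these mice were fed and all 8 received dex at 1 mg/kg. These mice were on a C57BL/6 background, C57BL/6J for L-IRSdKO in the methods, and entered NRF at 10 weeks of age. The sex of the injected mice and of the mice of both knockout experiments was not given in the sources used here, nor was the age of the Nr3c1 fl/fl mice beyond adult. In the obesity experiment, male C57BL/6 mice ate chow (lean) or a high-fat diet (obese) for 10 weeks before NRF, the high-fat diet starting at 5 weeks of age, and were unfed or fed at ZT14, with 3 mice in each of the 4 groups. Values were RPKM, in which reads are divided by the length of the transcript and the size of the library, each from the liver of 1 mouse, 54 livers in all. No read counts were given with the RPKM values, so the depth behind each value is unknown, and p-values measure the spread between these mice.

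Cyp4a enzymes add a hydroxyl group to the terminal carbon of fatty acids, the entry step of omega-oxidation. The dicarboxylic acids made from the products are shortened in peroxisomes. Cyp4a10 and Cyp4a14 are classical targets of PPARα, the fatty acid-activated receptor of the fasting liver, while Cyp4a12a makes the arachidonic acid product 20-HETE and is expressed mainly in male liver and kidney. Cyp4a12b is its close copy. Insulin restrains FOXO1, a transcription factor of the unfed liver, and glucocorticoids act through GR, the product of Nr3c1.

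The 6 genes lay within 323 kb of chromosome 4. On NCBIM37 (mm9) they were, in order, Cyp4a12a (chr4:114971651-115005420, plus strand), Cyp4a12b (chr4:115084229-115111639, plus), Cyp4a14 (chr4:115158805-115168747, minus), Cyp4a10 (chr4:115190869-115206254, plus), Cyp4a31 (chr4:115236254-115251618, plus), and Cyp4a32 (chr4:115273574-115294207, plus). Coding sequences of Cyp4a12a and Cyp4a12b were 98.5% identical and shared 54.9% of their 50-base words. Cyp4a10 was 97.2% identical to Cyp4a32 and 96.6% to Cyp4a31, which were 96.0% identical to each other, and 31.5 to 46.8% of the words of each of these 3 genes were found in another of the 6. Cyp4a14 was at most 75.8% identical to any of the others and shared 0 words with them. Reads that matched more than one copy could thus be split between Cyp4a10, Cyp4a31, and Cyp4a32, or between Cyp4a12a and Cyp4a12b, and differences within these sets are uncertain. The coding sequence of Cyp4a14 was free of that limit at this word length. Its untranslated parts, and sequences outside protein-coding transcripts, were not compared.

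The lists of GR peaks and FOXO1 peaks, from unfed livers at ZT14, and of DNase hypersensitive sites (DHSs), from fed and unfed livers, put 13 GR peaks, 7 FOXO1 peaks, and 31 DHSs within 50 kb of a start site of the 6 genes. All 7 FOXO1 peaks overlapped a GR peak by at least 1 base, against 59.7% of the 8546 FOXO1 peaks of the whole list. Around each start site, Cyp4a31 had 9 GR and 7 FOXO1 peaks, Cyp4a10 had 7 and 4, Cyp4a32 had 5 and 4, Cyp4a14 had 4 and 2, Cyp4a12a had 3 and 0, and Cyp4a12b had 0 of both, with peaks counted more than once where these windows overlap. Of 22380 protein-coding start sites, 32.8% had a GR peak and 34.6% a FOXO1 peak within this distance. FOXO1 peaks were thus listed on the Cyp4a10, Cyp4a31, and Cyp4a32 side of the cluster and were not listed near Cyp4a12a or Cyp4a12b. The peak lists give positions and no heights, and no value per mouse.

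**Figure D1:**
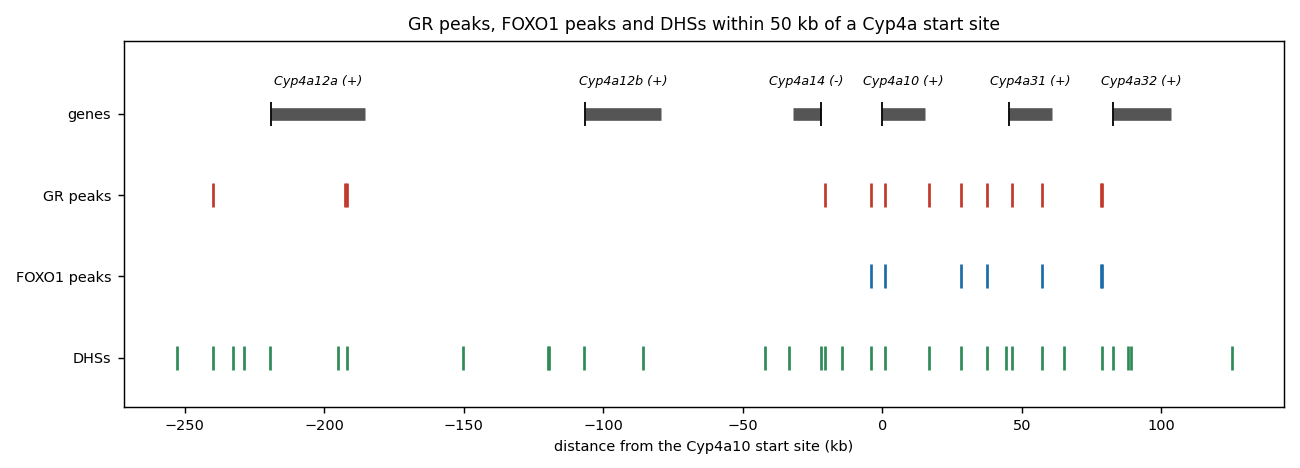
Positions of the 6 Cyp4a genes (grey bars, start sites as black ticks, strand in brackets) and of the GR peaks, FOXO1 peaks, and DHSs within 50 kb of a start site (coloured ticks), against distance from the Cyp4a10 start site in kb. All 7 FOXO1 peaks lie from just upstream of Cyp4a10 to just upstream of Cyp4a32, and 0 lie near Cyp4a12a or Cyp4a12b.

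The nearest pair of FOXO1 and GR peaks upstream of Cyp4a10, centred 4.02 and 4.00 kb from its start site, fell in sequence that is repeated upstream of Cyp4a31 and Cyp4a32. The FOXO1 peak (chr4:115186761-115186940) and the aligned stretches upstream of Cyp4a31 (chr4:115228361-115228568) and Cyp4a32 (chr4:115269601-115269780), all intergenic and from the plus strand, are shown because each of the 3 stretches overlapped a GR peak, a FOXO1 peak, and a DHS. Capitals mark bases that differ from the Cyp4a10 sequence or have no partner in it.
Cyp4a10 upstream: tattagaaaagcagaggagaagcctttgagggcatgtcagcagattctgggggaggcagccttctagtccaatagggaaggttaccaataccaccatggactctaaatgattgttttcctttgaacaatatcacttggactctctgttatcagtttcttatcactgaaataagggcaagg
Cyp4a31 upstream: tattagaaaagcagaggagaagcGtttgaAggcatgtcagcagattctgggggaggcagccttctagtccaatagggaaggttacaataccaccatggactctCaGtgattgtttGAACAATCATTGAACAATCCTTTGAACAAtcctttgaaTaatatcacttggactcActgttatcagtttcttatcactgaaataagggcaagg
Cyp4a32 upstream: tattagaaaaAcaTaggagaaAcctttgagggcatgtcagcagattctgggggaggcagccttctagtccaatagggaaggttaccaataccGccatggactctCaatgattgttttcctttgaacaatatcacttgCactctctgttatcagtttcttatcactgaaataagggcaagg
The Cyp4a32 stretch was 96.7% identical to that of Cyp4a10, and the Cyp4a31 stretch, which holds an insertion, was 82.8% identical.

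Another pair of FOXO1 and GR peaks lay in an intron of Cyp4a10, centred 1.04 and 1.06 kb downstream of the start site. The FOXO1 peak (chr4:115191824-115192003) and its counterparts in Cyp4a31 (chr4:115237215-115237382) and Cyp4a32 (chr4:115274465-115274631) are shown because the listed peaks differed between the copies. The Cyp4a31 stretch overlapped a GR peak but no FOXO1 peak or DHS, and the Cyp4a32 stretch overlapped none of the 3 lists. Capitals have the same meaning as above.
Cyp4a10 intron: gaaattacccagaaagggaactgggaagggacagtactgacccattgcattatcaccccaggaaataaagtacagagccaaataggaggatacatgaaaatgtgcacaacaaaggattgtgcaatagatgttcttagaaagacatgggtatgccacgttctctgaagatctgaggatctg
Cyp4a31 intron: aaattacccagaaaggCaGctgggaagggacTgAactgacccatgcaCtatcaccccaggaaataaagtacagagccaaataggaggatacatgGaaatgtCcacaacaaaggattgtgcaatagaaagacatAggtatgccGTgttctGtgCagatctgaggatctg
Cyp4a32 intron: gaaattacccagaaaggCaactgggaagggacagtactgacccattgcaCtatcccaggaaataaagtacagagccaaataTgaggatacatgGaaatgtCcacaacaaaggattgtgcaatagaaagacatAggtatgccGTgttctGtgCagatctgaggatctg
Both copies were 87.2% identical to the Cyp4a10 stretch over the aligned columns.

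The start sites of Cyp4a12a and Cyp4a12b had a DHS each but no GR or FOXO1 peak. The DHS of Cyp4a12a (chr4:114971396-114971563) and the aligned stretch of Cyp4a12b (chr4:115083950-115084117), which overlapped that gene's own DHS, are shown for the likeness of these 2 promoters, at 97.0% identity, with capitals for the bases that differ.
Cyp4a12a promoter: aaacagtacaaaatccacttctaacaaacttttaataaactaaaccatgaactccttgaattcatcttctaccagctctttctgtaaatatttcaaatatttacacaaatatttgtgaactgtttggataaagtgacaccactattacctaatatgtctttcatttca
Cyp4a12b promoter: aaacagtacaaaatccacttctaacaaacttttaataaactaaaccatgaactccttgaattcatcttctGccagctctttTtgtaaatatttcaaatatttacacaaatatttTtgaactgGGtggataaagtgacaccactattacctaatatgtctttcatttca
Cyp4a14 had 1 GR peak of its own at 1.54 kb upstream (chr4:115170199-115170378, printed from the minus strand, on which the gene lies), with a DHS over it and no FOXO1 peak.
Cyp4a14 GR peak: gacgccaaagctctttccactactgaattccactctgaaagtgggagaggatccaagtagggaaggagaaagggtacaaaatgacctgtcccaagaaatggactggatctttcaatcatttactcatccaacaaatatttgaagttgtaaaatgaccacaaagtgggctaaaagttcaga
Motifs were searched on both strands of these peaks. The GR hexamer TGTTCT was in 3 of 13 GR peaks near the 6 genes and in 27.7% of all 10446 GR peaks. Such hexamers paired as an inverted repeat 3 bases apart, with up to 2 of the 12 letters changed, were in 2 of 13 GR peaks and in 9.95% of all. The forkhead motif TGTTTAC was in 0 of 7 FOXO1 peaks, against 18.8% of all FOXO1 peaks. Direct repeats of AGGTCA 1 base apart are the kind of site bound by PPARα with its partner RXR. With up to 2 of the 12 letters changed, they were in 0 of 7 FOXO1 peaks and in 9.10% of all. They were in 0 of 13 GR peaks, against 8.16% of all, and in 1 of 31 DHSs, against 5.32%. The paired hexamers can hold the single hexamer. Because copies of these stretches recur, up to 57.2% of the 36-base words of a GR or FOXO1 peak here were found again on chromosome 4. This limits how surely a peak was placed on 1 copy, and how surely its absence from another copy can be read.

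The libraries were checked before the members were compared. Nr3c1 was at 12.8 to 16.2 RPKM in AAV-GFP livers and at 3.93 to 5.35 in AAV-CRE livers (adjusted p = 6.83e-05), and Irs1 was at 2.21 to 4.73 RPKM in IRS fl/fl and 0.149 to 0.321 in L-IRSdKO livers (adjusted p = 9.16e-04). Irs2 was at 0.614 to 5.61 against 0.272 to 1.00 RPKM and did not pass the test (adjusted p = 0.308), and whether its reads lie within the deleted part was not given in the sources used here. Markers of hepatocytes summed to 2257 to 2817 RPKM in the IRS fl/fl and L-IRSdKO livers and to 29131 to 75311 in all other groups. The 8 libraries of the L-IRSdKO experiment stood apart, since their most abundant gene reached 674 to 914 RPKM, against 18853 to 60597 in the other 46, and 49 to 74 genes per library reached 300 RPKM, against 117 to 196. Differences were therefore tested within experiments alone, and the part of this compressed range in the fold changes of that experiment was not tested. In RNA from whole liver, fewer cells of a type and less RNA per cell cannot be told apart.

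Over the 54 livers, Cyp4a10 ran from 8.40 to 669 RPKM with a median of 152, and Cyp4a14 from 0.768 to 758 with a median of 73.0. Cyp4a12a ran from 3.53 to 250 RPKM (median 83.5) and Cyp4a12b from 1.19 to 70.4 (median 24.8). Cyp4a32 had the narrowest range, from 5.70 to 32.8 RPKM (median 15.4), and Cyp4a31 had the lowest median, running from 0.486 to 93.4 (median 2.78). RPKM is scaled to transcript length, so these levels can be set beside each other within a library, except between close copies. There, reads that match more than 1 copy leave the levels and shares uncertain. Cyp4a10 gave the largest share of the summed RPKM of the family in unfed vehicle livers (43.3%) and in fed vehicle livers (36.6%), while Cyp4a14 gave 28.7% and 11.5% of these sums and Cyp4a12a 17.2% and 33.5%.

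**Figure D2:**
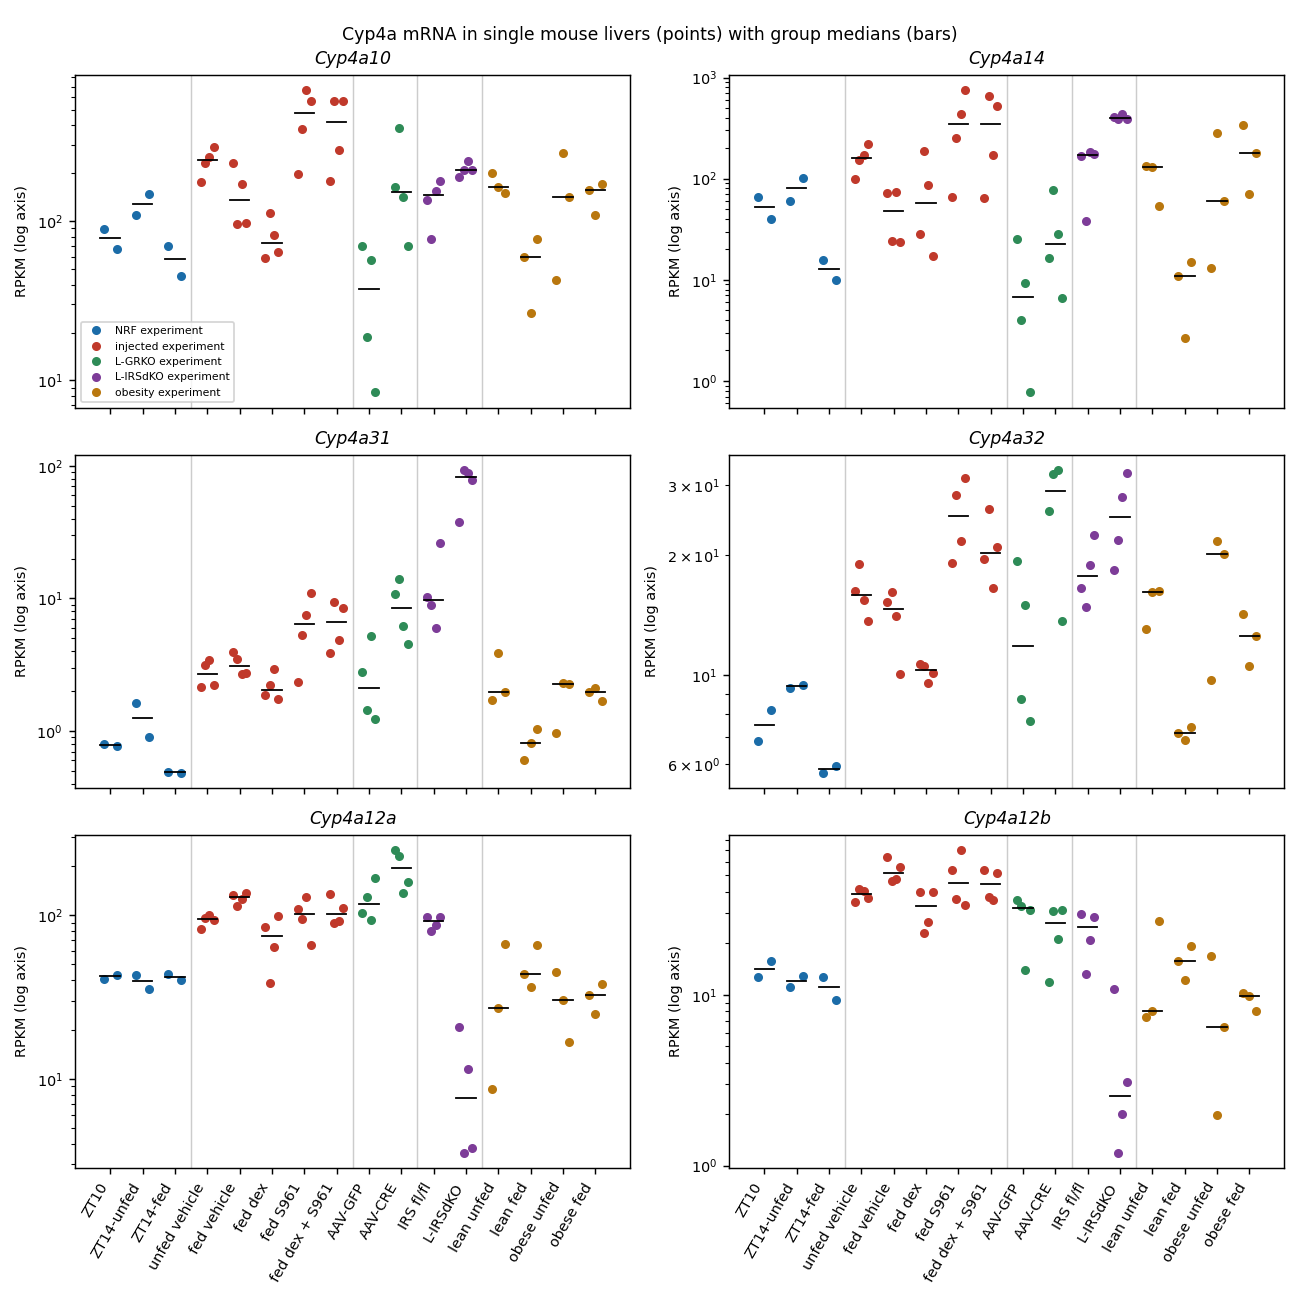
RPKM of each Cyp4a gene (log axis) in each of the 54 livers (points) by group, with group medians as black bars and colours for the 5 experiments. Cyp4a14 spans 0.768 to 758 RPKM, and Cyp4a12a and Cyp4a12b are lowest in L-IRSdKO livers, where Cyp4a31 is highest.

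Mice of the same group differed widely in these genes. The within-group SD of Cyp4a14 on the log2 scale was 0.49 in NRF mice, 1.27 in the injected mice, 1.64 in the L-GRKO, 0.78 in the L-IRSdKO, and 1.43 in the obesity experiment, above that of 94.9 to 99.9% of the genes tested, whose median SD was 0.12 to 0.23. Cyp4a10 followed with 0.36 to 1.22. In the injected mice, Cyp4a32 had an SD of 0.25, near the median of 0.23 over all genes. The spread of Cyp4a10 and Cyp4a14 was largely shared: with each group centred on its own mean, log2 levels of Cyp4a10 and Cyp4a14 had r = 0.93 over the 54 livers, given as a description because the points share libraries. Cyp4a12a and Cyp4a12b had r = 0.60 in the same way, and r between either of them and the other 4 genes was -0.37 to -0.16.

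**Figure D3:**
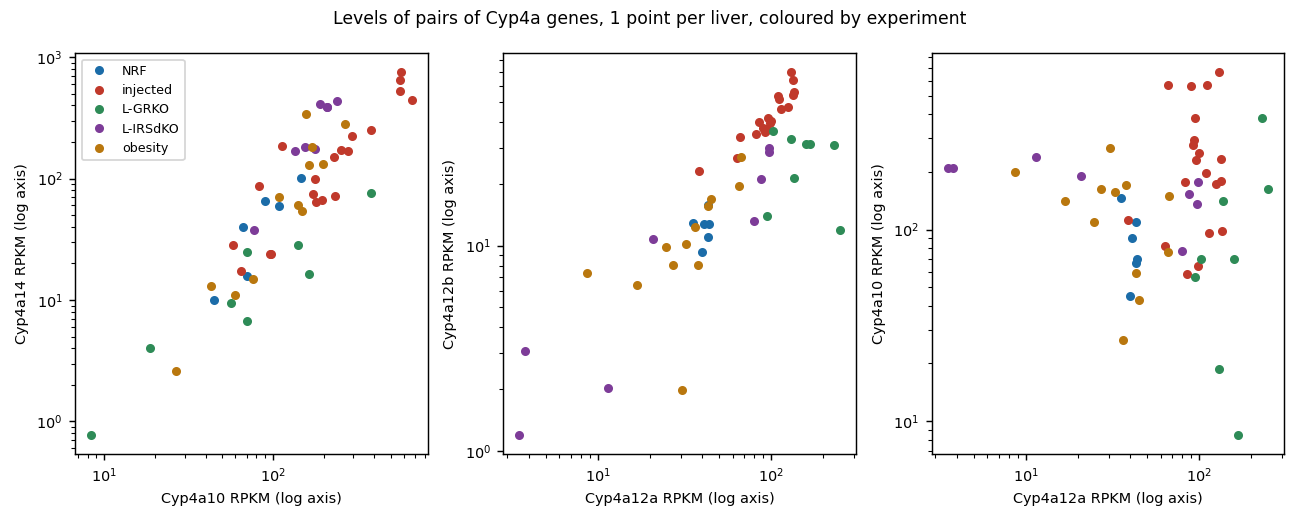
RPKM of Cyp4a14 against Cyp4a10 (left), Cyp4a12b against Cyp4a12a (middle), and Cyp4a10 against Cyp4a12a (right), with log axes, 1 point per liver, coloured by experiment. Points follow a line in the left panel (r = 0.93 within groups) and none is apparent in the right panel (r = -0.16).

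The meal lowered Cyp4a14 in uninjected mice. Cyp4a14 was at 59.4 and 101 RPKM in ZT14-unfed livers and at 15.7 and 9.92 in ZT14-fed livers. The groups did not overlap, and Cyp4a14 fell by 2.58 ± 0.33 (SE) on the log2 scale, 5.99-fold (adjusted p = 0.00903, limma). It was the only gene of the 6 to pass at 0.01, against 0.990% of all genes. Cyp4a10 was at 109 and 147 RPKM unfed and at 70.2 and 45.1 fed, with a log2 fold change of -1.17 ± 0.24 (adjusted p = 0.0358). Cyp4a32 was at 9.29 and 9.47 RPKM unfed and 5.70 and 5.91 fed, with a log2 fold change of -0.65 ± 0.11 (adjusted p = 0.0211). Cyp4a31, at 1.61 and 0.896 against 0.491 and 0.486 RPKM, had a log2 fold change of -0.80 ± 0.20 (adjusted p = 0.0592). These 4 genes were lower in both fed livers than in both unfed livers, and with 2 mice a group 59.7% of all genes did not overlap either way. Cyp4a12a did not show this, with 43.2 and 35.6 RPKM unfed and 43.9 and 40.1 fed (adjusted p = 0.637). The Cyp4a14 call was lost when either ZT10 library, ZT14-unfed replicate 2, or either ZT14-fed library was left out (adjusted p from 0.0138 to 0.0844, log2 fold change from -2.90 to -2.21), and also without the filter on low values (0.0706) or with the compared groups fitted alone (0.0143). The median log2 fold change of all genes was 0.12 here, and -0.00 with median-ratio scaling.

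From ZT10 to ZT14 without food, 0 of the 6 genes passed at 0.01 in limma, against 1.16% of all genes. Cyp4a10 and Cyp4a32 were at an unadjusted p under 0.05, as were 26.4% of all genes. Cyp4a10 was at 89.9 and 66.6 RPKM at ZT10 and at 109 and 147 at ZT14-unfed (log2 fold change 0.71 ± 0.24, adjusted p = 0.115). From ZT10 to ZT14-fed 0 passed too, against 1.71% of all genes. Cyp4a14 and Cyp4a32 were at an unadjusted p under 0.05, as were 28.3% of all genes. Cyp4a14 went from 65.4 and 40.2 to 15.7 and 9.92 RPKM without overlap (log2 fold change -2.00 ± 0.33, adjusted p = 0.0153), and it passed when either ZT14-unfed library was left out (adjusted p = 0.00612 and 0.00617), with the compared groups alone (0.00621), or with a filter at 2 RPKM (0.00607).

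In vehicle-injected mice the same meal left 0 of the 6 genes past 0.05 in limma, against 3.13% of all genes. Cyp4a14 was at an unadjusted p under 0.05, as were 19.3% of all genes. Cyp4a14 was at 99.0, 152, 171, and 222 RPKM in unfed and 71.9, 24.1, 74.0, and 23.8 in fed livers. Every fed liver was below every unfed one, with a log2 fold change of -1.87 ± 0.81 (adjusted p = 0.210). Cyp4a10 overlapped, with 177, 230, 253, and 293 RPKM unfed and 233, 96.1, 172, and 98.1 fed (adjusted p = 0.320). Cyp4a12a leaned the other way, with 82.2 to 99.95 RPKM unfed and 114 to 136 fed (adjusted p = 0.299, or 0.0494 with the compared groups alone). A list of 21 PPARα-linked genes, which holds PPARα, its partner Rxra, and other genes of the fasting response such as Txnip beside PPARα targets, gave 1 lower gene, Angptl4, the lipoprotein lipase inhibitor of the fasting response, at 77.8 to 105 RPKM unfed and 21.7 to 38.8 fed (adjusted p = 0.00794), and 0 higher, with a list median log2 fold change of -0.21 against 0.10 over all genes. Of 25 genes of omega-oxidation and peroxisomal oxidation, 0 passed in either direction (median -0.10). Of 5 Kupffer cell markers, Adgre1 and Cd5l were higher after the meal, and the summed level of the markers was 40.5 to 48.6 RPKM unfed and 56.7 to 82.5 fed. Their part in these values was not tested.

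**Figure D4:**
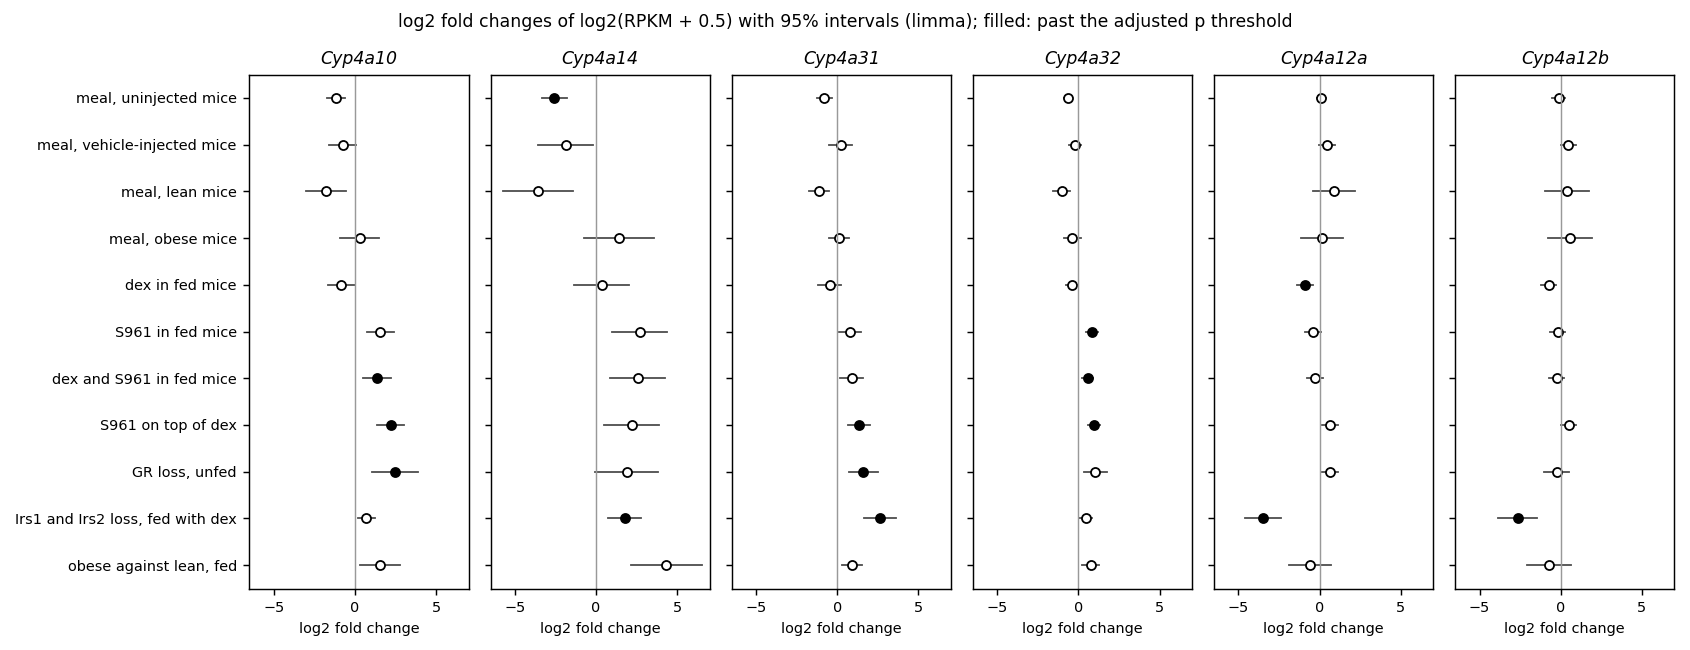
log2 fold changes of log2(RPKM + 0.5) with 95% confidence intervals for the 6 Cyp4a genes in 11 comparisons, where filled circles passed the adjusted p threshold (0.05, or 0.01 in uninjected NRF and obesity mice). Circles of Cyp4a10, Cyp4a14, Cyp4a31, and Cyp4a32 lie to the right of 0 where insulin signalling was blocked or GR was lost. The interval of Cyp4a14 in GR loss crosses 0 (-0.04 to 3.81). Cyp4a12a and Cyp4a12b lie far to the left in the Irs1 and Irs2 loss.

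S961, given to mice that ate, raised Cyp4a32, and the single livers with the highest Cyp4a10 and Cyp4a14 RPKM of the 54 were in this group. Cyp4a32 was at 15.3, 16.2, 14.1, and 10.1 RPKM in fed vehicle livers and at 19.1, 28.3, 21.8, and 31.3 with S961, without overlap. It rose by 0.82 ± 0.17 on the log2 scale, 1.77-fold (adjusted p = 0.0127), the only 1 of the 6 to pass, against 1.90% of all genes. Cyp4a32 is a close copy of Cyp4a10, with 34.8% of its 50-base words in common, and could share reads with it. Cyp4a10 was at 197, 381, 669, and 572 RPKM with S961, overlapping the fed vehicle values through the first of these livers, with a log2 fold change of 1.56 ± 0.40 (adjusted p = 0.0513). Cyp4a14 was at 66.0, 250, 439, and 758 RPKM, with a log2 fold change of 2.69 ± 0.81 (adjusted p = 0.107). Both genes were lowest in the same mouse, replicate 1. Cyp4a31 was at 2.36 to 11.1 RPKM against 2.69 to 3.92 (log2 fold change 0.77 ± 0.33, adjusted p = 0.284). Cyp4a12a was at 109, 94.2, 130, and 65.8 RPKM (adjusted p = 0.493), and Cyp4a12b was at 53.6, 36.5, 70.4, and 33.7 (adjusted p = 0.787). Without S961 replicate 1, Cyp4a10, Cyp4a14, and Cyp4a31 passed as well (adjusted p = 0.0106, 0.0279, and 0.0316). Cyp4a10 also passed without fed vehicle replicate 1 or without dex + S961 replicate 1 or 4 (0.0441, 0.0341, and 0.0495). It passed too with median-ratio scaling (0.0444), a filter at 2 RPKM (0.0465), or a replicate 4 term (0.0327). This term set replicate 4 of each injected group against replicates 1 to 3, and the sample titles name no batch behind this split. Cyp4a32 was lost without S961 replicate 2 or 4 (0.0513 and 0.0552), with the compared groups alone (0.164), and with replicates 1 to 3 alone, a restriction chosen after seeing the data (0.0913).

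Other genes of the pathway were higher with S961, where 1.90% of all genes passed in either direction. Of the 21 PPARα-linked genes, 8 rose and 0 fell, with a median log2 fold change of 0.50 against -0.08 over all genes. Of the 25 omega-oxidation and peroxisomal genes, 5 rose and 0 fell (median 0.29). Among them were Ehhadh, an enzyme of peroxisomal beta-oxidation, Pex11a, a peroxisome division protein, Slc27a2, an acyl-CoA synthetase and fatty acid transporter, and Cyp4f17. Of the 5 Kupffer cell markers, Adgre1 and Cd5l were lower, at a summed level of 35.0 to 55.8 RPKM, and their part was not tested.

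Dex alone lowered Cyp4a12a in fed mice. Cyp4a12a was at 133, 114, 125, and 136 RPKM with vehicle and at 84.8, 38.6, 63.7, and 98.3 with dex. All 4 dex livers were below all 4 vehicle livers, and Cyp4a12a fell by 0.91 ± 0.23 on the log2 scale, 1.87-fold (adjusted p = 0.0355). It alone passed, against 3.19% of all genes. Cyp4a12b was at 64.0, 46.1, 47.6, and 55.8 RPKM with vehicle and at 40.0, 23.0, 26.7, and 39.7 with dex, again without overlap (log2 fold change -0.74 ± 0.22, adjusted p = 0.0702). These 2 of 6 genes did not overlap, against 10.5% of all genes. Cyp4a14 overlapped between the groups and was with dex at 28.1, 186, 86.9, and 17.4 RPKM (adjusted p = 0.871). Cyp4a10 was at 58.4, 113, 82.4, and 64.4 RPKM with dex (log2 fold change -0.85 ± 0.40, adjusted p = 0.259), and Cyp4a32 was at 10.7, 10.5, 9.58, and 10.1 (log2 fold change -0.41 ± 0.17, adjusted p = 0.197). The Cyp4a12a call was lost without any 1 of the 4 fed vehicle livers or without dex replicate 2 or 3 (adjusted p from 0.0651 to 0.123), with median-ratio scaling (0.0741), without the filter (0.0591), and with the compared groups alone (0.138). Cyp4a12b passed without dex replicate 4 (0.0418) or S961 replicate 3 (0.0376) and with the replicate 4 term (0.0407).

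Of 10 male-predominant liver genes, 2 fell with dex, Cyp2d9 and Cyp2u1, and 0 rose, with a median log2 fold change of -0.73 against -0.10 over all genes. Of all genes, 3.19% passed in either direction. Plin2, a lipid droplet protein, and Vnn1, a pantetheinase, were the 2 PPARα-linked genes that fell, and Aldh3a2, which oxidizes fatty aldehydes, fell among the omega-oxidation genes. Markers of other cells moved too. Cd5l of Kupffer cells, Clec4g and Kdr of endothelial cells, and Glul of pericentral hepatocytes were lower with dex and Sds of periportal hepatocytes was higher, and the summed endothelial markers were 53.2 to 62.1 RPKM with vehicle and 35.1 to 50.7 with dex. Their part in the Cyp4a12a value was not tested.

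With dex and S961 together, Cyp4a10 and Cyp4a32 were higher than in fed vehicle livers, 2 of 6 genes against 10.6% of all genes. These 2 genes are close copies that could share reads. The same fed vehicle livers served as controls for dex, S961, and both. Cyp4a10 was at 180, 565, 278, and 569 RPKM, overlapping the highest vehicle liver, and rose by 1.35 ± 0.40 on the log2 scale (2.55-fold, adjusted p = 0.0361). Cyp4a32 was at 19.6, 26.2, 16.5, and 21.1 RPKM, above all vehicle livers, and rose by 0.57 ± 0.17 (1.48-fold, adjusted p = 0.0356). Cyp4a14 was at 63.7, 650, 170, and 529 RPKM (log2 fold change 2.55 ± 0.81, adjusted p = 0.0502), and Cyp4a31 was at 3.90, 9.33, 4.83, and 8.49 (0.88 ± 0.33, adjusted p = 0.0928). Of the PPARα-linked genes 6 of 21 rose and 0 fell, with a median of 0.33 against -0.14 over all genes (0.01 with median-ratio scaling). Of the 25 omega-oxidation and peroxisomal genes, Pex11a alone rose and 0 fell. Cyp4a10 was lost without fed vehicle replicate 2 or 4 or dex + S961 replicate 2 or 4 (adjusted p from 0.0896 to 0.132), and Cyp4a32 without fed vehicle replicate 3 or 4 or dex + S961 replicate 1, 2, or 4 (from 0.0549 to 0.139). Cyp4a14 passed without dex + S961 replicate 1 (0.0189), dex replicate 2 or 4 (0.0394 each), or S961 replicate 1 or 4 (0.0327 and 0.0417), and Cyp4a31 without S961 replicate 1 (0.0332). Both were lost without the filter (0.0616 for Cyp4a10 and 0.0526 for Cyp4a32), with the compared groups alone (0.0762 and 0.0814), and with replicates 1 to 3 alone (0.193 and 0.110). Cyp4a14 passed with a filter at 2 RPKM (0.0477) or the replicate 4 term (0.0364).

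Cell markers moved here as well. Of the 5 Kupffer cell markers, Adgre1 and Cd5l were lower, and their sum was 56.7 to 82.5 RPKM with vehicle and 43.6 to 49.9 with both agents. Sds, 1 of 5 periportal markers, was higher, at 115 to 173 RPKM with vehicle and 222 to 273 with both. Blood markers summed to 40.5 to 149 and 34.3 to 64.6 RPKM, with 0 of 3 past the test. Their part in the Cyp4a values was not tested.

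S961 on top of dex gave the most calls in the injected mice, with 3 of 6 genes higher and past the test, against 2.96% of all genes. All 3 are close copies that could share reads, so they are not 3 separate results. Cyp4a10 went from 58.4 to 113 RPKM with dex to 180 to 569 with dex and S961, without overlap, and rose by 2.20 ± 0.40 on the log2 scale, 4.61-fold (adjusted p = 0.00411). Cyp4a32 went from 9.58 to 10.7 RPKM to 16.5 to 26.2, without overlap, and rose by 0.97 ± 0.17, 1.96-fold (adjusted p = 0.00335). Both calls held in each of the fits that left out 1 of the 20 livers. Cyp4a31 went from 1.75 to 2.92 RPKM to 3.90 to 9.33 and rose by 1.35 ± 0.33 (adjusted p = 0.0274), a call lost without dex replicate 1, 2, or 4 or dex + S961 replicate 2 or 4 (adjusted p from 0.0608 to 0.119) with replicates 1 to 3 alone (0.0756), and without the filter (0.0517). Of the 6 genes, 3 did not overlap, against 10.2% of all genes. Cyp4a14 overlapped between the groups (log2 fold change 2.21 ± 0.81, adjusted p = 0.171). Of the PPARα-linked genes 8 of 21 rose and 0 fell (median 0.60 against -0.05), and of the omega-oxidation and peroxisomal genes 4 of 25 rose and 0 fell. Of 10 male-predominant genes, Cyp2d9 and Elovl3 rose and 0 fell (median 0.38). Glul, 1 of 6 pericentral markers tested, was higher, at 142 to 290 RPKM with dex and 257 to 315 with both agents, and its part in the Cyp4a values was not tested.

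Cyp4a12a had different values by setting. With dex it was at 38.6 to 98.3 RPKM and with dex and S961 at 89.9 to 134 (log2 fold change 0.64 ± 0.23, adjusted p = 0.159). The interaction of dex and S961, which asks whether the effect of dex differed with and without S961, was 1.03 ± 0.33 for Cyp4a12a and 0.66 ± 0.31 for Cyp4a12b (adjusted p = 1.000 for both). In that interaction 0 of the 6 genes and 0% of all 11251 genes passed in limma, with 513 genes (4.56%) at an unadjusted p under 0.05, Cyp4a12a and Cyp4a12b among them. Dex on top of S961 gave 0 of 6, against 1.91% of all genes, and 0 at an unadjusted p under 0.05, against 12.1%. Fed mice with both agents against unfed vehicle mice gave 0 of 6 against 2.32% of all genes. In that comparison Cyp4a31 had the lowest p, at 2.14 to 3.42 RPKM unfed and 3.90 to 9.33 with both agents (log2 fold change 1.08 ± 0.33, adjusted p = 0.102), and it passed without S961 replicate 1 (0.0284). Cyp4a32 was the other gene at an unadjusted p under 0.05, where 11.8% of all genes were (0.35 ± 0.17, adjusted p = 0.420). Cyp4a10 was at 177 to 293 RPKM in these unfed livers and at 180 to 569 in the fed livers with both agents (adjusted p = 0.657).

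Loss of GR from hepatocytes raised Cyp4a10 and Cyp4a31 in unfed mice, 2 of 6 genes against 6.68% of all genes. Both are close copies that could share reads. Cyp4a10 was at 70.1, 18.7, 56.7, and 8.40 RPKM in AAV-GFP livers and at 163, 384, 141, and 70.1 in AAV-CRE livers. The lowest AAV-CRE and the highest AAV-GFP liver met at 70.1 RPKM, and Cyp4a10 rose by 2.46 ± 0.65 on the log2 scale, 5.50-fold (adjusted p = 0.0464). Cyp4a31 was at 2.79, 1.45, 5.24, and 1.22 RPKM against 10.8, 14.1, 6.17, and 4.56, with overlap of 1 liver each, and rose by 1.61 ± 0.40, 3.06-fold (adjusted p = 0.0387). Cyp4a32 was at 19.4, 8.73, 15.0, and 7.67 against 25.8, 32.1, 32.8, and 13.7 RPKM (log2 fold change 1.03 ± 0.32, adjusted p = 0.0886). The control livers were high or low in all 3 genes together, with replicates 2 and 4 lowest. Cyp4a14 was at 25, 4.03, 9.39, and 0.768 RPKM against 16.5, 76.5, 28.3, and 6.67 (adjusted p = 0.260). Cyp4a12a was at 103, 130, 94.0, and 168 against 250, 230, 136, and 159 RPKM (log2 fold change 0.64 ± 0.22, adjusted p = 0.124), and Cyp4a12b was at 14 to 36 against 11.9 to 31.2 (adjusted p = 0.737). The Cyp4a10 call was lost without AAV-GFP replicate 2 or 4 or AAV-CRE replicate 1, 2, or 3 (adjusted p from 0.0848 to 0.147), the Cyp4a31 call without AAV-GFP replicate 1, 2, or 4 or AAV-CRE replicate 1, 2, or 3 (from 0.0572 to 0.127), and both with median-ratio scaling (0.0824 and 0.0701) and without the filter (0.139 and 0.120). Cyp4a32 passed without AAV-GFP replicate 1 (0.0442) or AAV-CRE replicate 4 (0.0206).

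Among the other genes of the pathway in GR loss, 7 of 26 omega-oxidation and peroxisomal genes rose and 1 fell, Por, the electron donor of microsomal P450 enzymes, with a list median log2 fold change of 0.28 against 0.08 over all genes. Of the 21 PPARα-linked genes, Plin2 and Vnn1 rose and 0 fell (median 0.37), where 6.68% of all genes passed in either direction. Of 10 male-predominant genes 5 fell and 2, Cyp2u1 and Hsd3b5, rose (median -1.04), while Cyp4a12a, also male-predominant, had higher values in 2 AAV-CRE livers than in any AAV-GFP liver. Blood markers moved with GR loss, as Hba-a1 and Hbb-b1 were higher, 2 of 3, and their sum was 182 to 241 RPKM in AAV-GFP and 257 to 573 in AAV-CRE livers. Lrat of stellate cells and Lgr5 of pericentral hepatocytes were higher, and Cps1 and Sds were lower. Their part in the Cyp4a values was not tested.

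Loss of Irs1 and Irs2 moved the family in opposite directions. Cyp4a14 and Cyp4a31 rose and Cyp4a12a and Cyp4a12b fell, 4 of 6 genes against 17.4% of all genes. Of these, Cyp4a12a and Cyp4a12b are close copies that could share reads. Cyp4a12a was at 97.3, 79.5, 87.1, and 97.7 RPKM in IRS fl/fl livers and at 20.8, 3.53, 11.4, and 3.78 in L-IRSdKO livers. The groups were far apart, and Cyp4a12a fell by 3.48 ± 0.48 on the log2 scale, 11.1-fold (adjusted p = 0.00421). Cyp4a12b went from 29.8, 13.2, 21.0, and 28.6 to 10.8, 1.19, 2.02, and 3.08 RPKM without overlap and fell by 2.64 ± 0.53, 6.24-fold (adjusted p = 0.0129). The same mouse, L-IRSdKO replicate 1, kept the highest level of both.

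Cyp4a31, the gene with the lowest median of the family, was at 10.3, 9.00, 6.01, and 26.1 RPKM in IRS fl/fl and at 37.8, 93.4, 87.8, and 78.2 in L-IRSdKO livers, and rose by 2.61 ± 0.43 on the log2 scale, 6.12-fold (adjusted p = 0.00657). Cyp4a14 was at 169, 37.9, 183, and 176 RPKM against 410, 385, 438, and 391, and rose by 1.75 ± 0.45, 3.37-fold (adjusted p = 0.0302). All L-IRSdKO livers were above all IRS fl/fl livers for both genes. Cyp4a10 was at 136, 77.4, 154, and 178 against 190, 211, 240, and 211 RPKM, also without overlap (log2 fold change 0.70 ± 0.22, adjusted p = 0.0628), so that 5 of 6 genes did not overlap, against 21.7% of all genes, and Cyp4a32 was at 14.8 to 22.5 against 18.4 to 32.2 (0.44 ± 0.19, adjusted p = 0.141). The calls of Cyp4a12a, Cyp4a12b, and Cyp4a31 held in each of the 8 fits that left out 1 liver, and that of Cyp4a14 was lost without L-IRSdKO replicate 2, 3, or 4 (adjusted p = 0.0727, 0.0810, and 0.0719). Cyp4a10 passed without IRS fl/fl replicate 2 or 4 (0.0402 and 0.0462), and Cyp4a32 without L-IRSdKO replicate 1 (0.0419). Of the summed RPKM of the family, Cyp4a14 made up 31.3% in IRS fl/fl and 55.5% in L-IRSdKO livers, Cyp4a31 3.09% and 10.1%, and Cyp4a12a 23.1% and 1.37%.

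**Figure D5:**
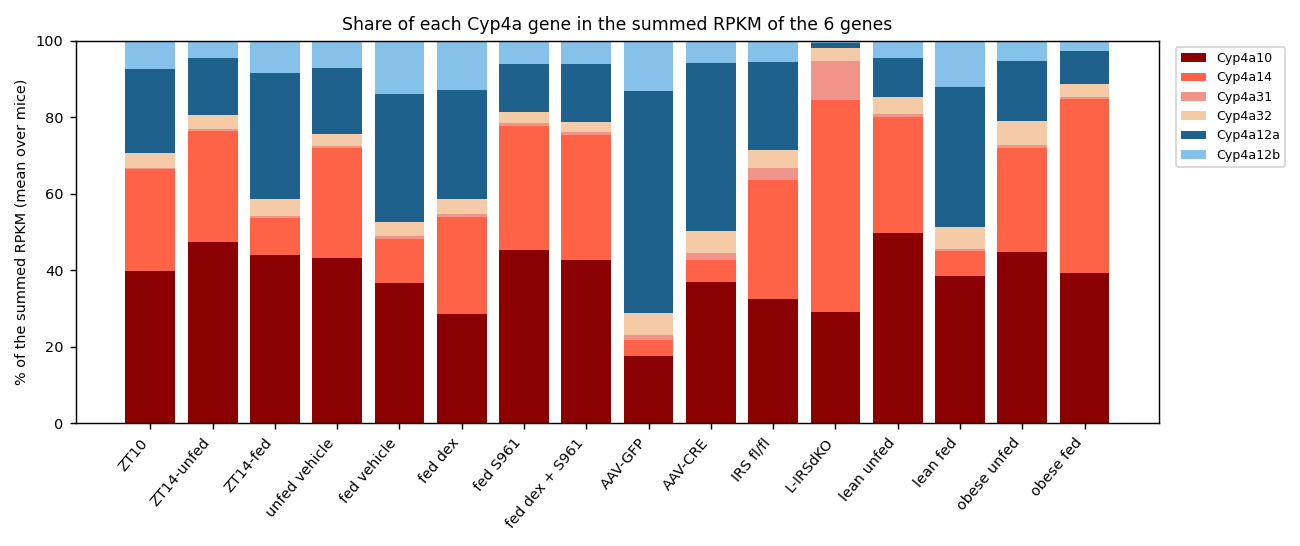
Share of each Cyp4a gene in the summed RPKM of the 6 genes, in percent, as the mean over the mice of each of the 16 groups (stacked bars from 0 to 100%). Cyp4a12a and Cyp4a12b (blue) make up 1.37% and 0.603% in L-IRSdKO livers, and Cyp4a14 (bright red) runs from 4.25% in AAV-GFP to 55.5% in L-IRSdKO livers. Shares within sets of close copies are uncertain, as their reads could be split.

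The fall of Cyp4a12a and Cyp4a12b in L-IRSdKO livers stood beside that of other male-predominant genes, of which 9 of 10 fell and 0 rose, with a median log2 fold change of -1.94 against 0.03 over all genes. Of 9 female-predominant genes listed, 6 passed the filter on low values. A gene low in IRS fl/fl livers could pass it through the L-IRSdKO livers alone. Of these 6, 5 rose and 0 fell (median 2.88), among them Cux2, Cyp17a1, Cyp2b13, and Cyp2b9. The filter thus favoured rises, and this count is no test of direction. The whole list summed to 5.49 to 39.4 RPKM in IRS fl/fl and 118 to 390 in L-IRSdKO livers. Sex-linked genes, chosen after their values were seen, were alike in range in both groups. Xist, which is expressed from the inactive X chromosome of females, was at 0.0210 to 0.111 RPKM in IRS fl/fl and 0.0180 to 0.111 in L-IRSdKO livers, and Ddx3y of the Y chromosome was at 21.0 to 22.6 and 21.8 to 23.1. In every group of the study Xist was at 0.111 RPKM or less and Ddx3y at 13.2 or more, the pattern of male livers. Of the 21 PPARα-linked genes, 13 rose and 1 fell, Creb3l3, a fasting-induced transcription factor that works with PPARα (median 0.41). Of 27 omega-oxidation and peroxisomal genes, 6 rose and 2 fell, Cyp4f14 and Cyp4v3, themselves fatty acid omega-hydroxylases (median 0.16). Of all genes, 17.4% passed in either direction. Among cell markers, Clec4f of Kupffer cells and Pecam1 and Stab2 of endothelial cells were higher, and Ttr, Cyp1a2, Glul, Cyp2f2, and Spp1 were lower. The summed Kupffer cell markers were 125 to 227 RPKM in IRS fl/fl and 214 to 280 in L-IRSdKO livers, and the summed endothelial markers 81.9 to 108 and 83.4 to 126. Their part in the Cyp4a values was not tested.

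In lean mice of the obesity experiment, the meal gave lower values of 4 Cyp4a genes, none past the threshold of 0.01. In limma 0 of 6 passed, against 10.2% of all genes. These 4 were at an unadjusted p under 0.05, where 36.3% of all genes were, and did not overlap between the groups, where 43.3% of all genes did not. Cyp4a14 was at 133, 130, and 53.8 RPKM in lean unfed and 11.0, 2.63, and 14.9 in lean fed livers, without overlap (log2 fold change -3.58 ± 0.99, 12-fold, adjusted p = 0.0240). Cyp4a10 was at 199, 163, and 150 against 59.6, 26.5, and 76.8 RPKM (-1.77 ± 0.56, adjusted p = 0.0410). Cyp4a31 and Cyp4a32 were lower in all 3 fed livers too, at -1.15 ± 0.28 (adjusted p = 0.0148) and -1.03 ± 0.24 (adjusted p = 0.0115). Cyp4a12a was at 8.66, 27.0, and 66.9 RPKM unfed and at 43.4, 36.2, and 65.6 fed (adjusted p = 0.310). Leaving out obese unfed replicate 1, which enters only the shared spread, put Cyp4a10, Cyp4a14, Cyp4a31, and Cyp4a32 past 0.01 (adjusted p = 0.00574, 0.00705, 0.00446, and 3.35e-04), and leaving out obese unfed replicate 2 put Cyp4a14 and Cyp4a32 past it (0.00899 and 0.00837), as did fitting the lean groups alone (0.00666 and 0.00105). Cyp4a32 also passed with median-ratio scaling (0.00850) or a filter at 2 RPKM (0.00985). Angptl4 and Txnip, an inhibitor of thioredoxin and of glucose uptake, were the 2 of 21 PPARα-linked genes that fell, and 0 rose. Of 25 omega-oxidation and peroxisomal genes, Por fell and 0 rose, and of the endothelial markers Stab2 fell, at a summed 49.1 to 59.3 RPKM unfed and 36.1 to 42.5 fed.

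In obese mice a meal gave 0 of 6 genes, against 1.22% of all genes, and 0 at an unadjusted p under 0.05, against 25.2%. Fed obese livers are labelled high-fat diet and fed lean livers chow, and the food of this last meal was not stated in the sources used here. Obesity and the food just eaten thus cannot be told apart between the fed groups or in the diet by meal interaction. Cyp4a14 was at 13.1, 282, and 60.1 RPKM in obese unfed and 342, 70.0, and 181 in obese fed livers, with wide overlap (adjusted p = 0.410). Cyp4a10 was at 43.0, 267, and 141 against 158, 109, and 172 RPKM (adjusted p = 0.791). The unfed obese livers ran in 1 order for both genes, with replicate 1 lowest and replicate 2 highest.

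Obese fed livers had higher Cyp4a14 than lean fed livers, at 342, 70.0, and 181 against 11.0, 2.63, and 14.9 RPKM. The log2 fold change was 4.32 ± 0.99, 19.9-fold, and all 3 obese fed livers were above all 3 lean fed livers, but it did not pass (adjusted p = 0.0777). Cyp4a10 was at 158, 109, and 172 against 59.6, 26.5, and 76.8 RPKM (1.53 ± 0.56, adjusted p = 0.172). Cyp4a31 was at 1.97, 2.11, and 1.70 against 0.605, 0.815, and 1.03 RPKM (0.89 ± 0.28, adjusted p = 0.135), and Cyp4a32 at 14.3, 10.6, and 12.6 against 7.15, 6.87, and 7.43 (0.75 ± 0.24, adjusted p = 0.136). Cyp4a12b, with a mean of 9.40 against 15.8 RPKM, was lower in all 3 obese fed livers. These 5 of 6 genes did not overlap between the diets in fed mice, against 32.6% of all genes. In limma 0 of the 6 and 0% of all 11434 genes passed, with 4 of the 6 and 2284 genes (20%) at an unadjusted p under 0.05. Of the 21 PPARα-linked genes and the 25 omega-oxidation and peroxisomal genes, 0 passed in either direction, with medians of 0.53 and 0.37 against 0.01 over all genes. Adipocyte markers summed to 0.390 to 0.902 RPKM in lean fed and 0.0760 to 5.37 in obese fed livers, and their part was not tested.

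Without food, obese and lean livers gave 0 of 6 genes, against 0.770% of all genes, and 0 at an unadjusted p under 0.05, against 22.9%. Cyp4a14 in obese unfed livers spanned the lean unfed values on both sides (adjusted p = 0.721). The diet by meal interaction, which asks whether the meal effect differed between obese and lean mice, gave 0 of 6 genes against 0.131% of all genes. Cyp4a10, Cyp4a14, and Cyp4a31 were at an unadjusted p under 0.05, as were 15.0% of all genes. For Cyp4a14 it was 4.99 ± 1.40 on the log2 scale (adjusted p = 0.132), for Cyp4a10 2.05 ± 0.79 (adjusted p = 0.256), and for Cyp4a31 1.25 ± 0.40 (adjusted p = 0.185). Angptl4 was the 1 of 21 PPARα-linked genes that passed it, with 114 to 121 RPKM in lean unfed, 16.0 to 20.7 in lean fed, 42.4 to 77.8 in obese unfed, and 44.0 to 69.2 in obese fed livers (adjusted p = 0.00762). Cyp4a14 thus made up 30.3% of the summed RPKM of the family in lean unfed, 6.37% in lean fed, 27.1% in obese unfed, and 45.3% in obese fed livers.

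In the order of group medians, Cyp4a14 was highest in L-IRSdKO livers (400 RPKM), followed by dex + S961 (349), S961 (345), obese fed (181), and IRS fl/fl livers (173), and lowest in AAV-GFP (6.71), lean fed (11.0), and ZT14-fed livers (12.8). The ranges of each neighbouring pair of groups in this order overlapped. For Cyp4a12a the order began with AAV-CRE (195 RPKM) and fed vehicle livers (129), where the lowest AAV-CRE and the highest fed vehicle liver were both at 136, and ended with L-IRSdKO livers (7.60). For Cyp4a31 the L-IRSdKO livers (83.0) stood clear of the next group, IRS fl/fl (9.67). These orders cross experiments with different libraries, ribosomal depletion against poly(A) selection among them, and the compressed range of the L-IRSdKO libraries was not adjusted for, so they are given as levels only.

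Genes outside the family were ranked by the likeness of their pattern, as Pearson's r of log2(RPKM + 0.5), centred on the mean of each experiment, over the 54 livers and 10521 genes. The 5 most like Cyp4a10 were Acot4 (r = 0.81), Acot3 (0.81), Acot1 (0.80), Retsat (0.80), and Acss3 (0.78). Those most like Cyp4a14 were Retsat (0.79), Acot1 (0.79), Acadm (0.78), Acot2 (0.77), and Acot12 (0.76). Acot genes encode acyl-CoA thioesterases, Retsat a retinol saturase, and Acadm the medium-chain acyl-CoA dehydrogenase. Cyp4a12a had other neighbours, namely Alas2 (0.86), Slc22a30 (0.83), Slco1a1 (0.82), Tmem19 (0.80), and C4a (0.80). Of these, Slco1a1 is an organic anion transporter on the list of male-predominant genes, and Alas2 is a heme synthesis enzyme of red cells. The points share libraries and experiments, and r is a description.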

How the data were processed

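Per the labels and the study's methods, the authors aligned reads to mm9 with STAR and deposited RPKM per RefSeq transcript, counted and normalized with HOMER, from poly(A) or ribo-depleted RNA. RPKM is scaled to depth and length but not to composition, and the deposited values hold no counts, so a low RPKM may rest on few reads. The deposited peak lists are scored here by position alone. 0 value columns were left unused, and 0 pairs of libraries were identical.

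For each symbol the transcript with the highest mean was kept. Each experiment was fitted apart with limma 3.58.1 (trend) in R 4.3.3 on log2(RPKM + 0.5), for genes whose mean reached 0.5 RPKM, without a replicate block, and p-values were adjusted by Benjamini-Hochberg over all genes. Fold changes are on that scale and understate those of low genes. The threshold was 0.01 in the NRF and obesity experiments and 0.05 in the others. Sequences are from NCBIM37, aligned with Biopython 1.88 in Python 3.11.15. The test was checked on simulated data. Fits were repeated with other pseudocounts (0.1, 1), without the filter or with one at 2 RPKM, after median-ratio scaling, with a block for replicate number, with only the groups of a comparison, and without each library, and windows of 20 and 100 kb were tried. In the injected mice a replicate 4 term was also fitted, which set replicate 4 of each group against replicates 1 to 3. The members and gene lists were chosen with earlier results of these data known. Named were the 6 genes, Nr3c1, Irs1, and Irs2, the 3 called list genes with the largest changes in 2 comparisons (vehicle-injected meal, and obese against lean fed), and 5 genes of like pattern for each of 3 members. Other list genes were named after their values were seen. The dose of S961 reads differently in the sources and is not given.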

Additional observations from a re-analysis of the deposited data

Results flagged for a closer look

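In 54 sets of 4 livers, 1 for each Cyp4a gene and group, the highest or lowest liver was compared with the rest by Dixon's ratio, the gap to the nearest liver divided by the range. The ratio passed its 95% critical value in 2 sets, where chance gives about 1 in 20. Cyp4a14 in IRS fl/fl livers was at 37.9 RPKM in replicate 2 and at 169 to 183 in the other 3 (ratio 0.950). Cyp4a12b in AAV-GFP livers was at 14 RPKM in replicate 3 and at 31.1 to 36 in the other 3 (ratio 0.845).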

How the results depend on the processing

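Of 2344 refitted fold changes of the 6 genes, 39 reversed their direction, in 21 of the 108 pairs of gene and comparison. None of the 39 was past the test before or after. With median-ratio scaling Cyp4a12a reversed to 0.02 from ZT10 to ZT14-unfed and to -0.05 for the uninjected meal, and with replicates 1 to 3 alone to -0.09 for dex on S961. The other 36 came from leaving out 1 library. Cyp4a12a then ran from -0.24 to 0.03 from ZT10 to ZT14-unfed, -0.04 to 0.23 for the uninjected meal, -0.07 to 0.06 from ZT10 to ZT14-fed, -0.06 to 0.26 for dex on S961, -0.24 to 0.45 for the obese meal, and -0.57 to 0.87 for obese against lean unfed. Cyp4a12b ran from -0.34 to 0.09 for the uninjected meal, -0.23 to 0.12 for dex on S961, -0.57 to 0.03 for GR loss, -0.16 to 1.25 for the obese meal, and -0.54 to 0.86 for the diet by meal interaction. Cyp4a14 ran from -0.26 to 0.87 for dex, -0.82 to 0.51 for dex on S961, -1.16 to 0.17 for the dex by S961 interaction, and -1.77 to 0.42 for obese against lean unfed. Cyp4a10 ran from -0.56 to 0.12 for dex on S961, -0.43 to 0.88 for the obese meal, and -1.12 to 0.19 for obese against lean unfed. Cyp4a31 ran from -0.27 to 0.41 for dex on S961 and -0.20 to 0.26 for the obese meal, and Cyp4a32 from -0.10 to 0.46 for obese against lean unfed.

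The number of the 6 genes called moved as follows. Without a filter it was 0 for the meal in uninjected mice, dex, dex with S961, and GR loss, and 2 for S961 on dex. With median-ratio scaling it was 0 for dex and GR loss, 2 for S961, and 1 for the meal in lean mice. With a filter at 2 RPKM it was 1 for ZT10 to ZT14-fed, 2 for S961, 3 for dex with S961, and 1 for the meal in lean mice. In the compared groups alone it was 0 for the uninjected meal, dex, S961, and dex with S961, 1 for ZT10 to ZT14-fed and for the vehicle-injected meal (Cyp4a12a), and 2 for the lean meal. The replicate 4 term gave 2 for dex, 2 for S961, and 3 for dex with S961. Replicates 1 to 3 alone, chosen after seeing the data, gave 0 for S961, 0 for dex with S961, and 2 for S961 on dex. The cause was not tested.

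Same-numbered samples were checked for shared deviations from their group means. In the injected mice r was over 0.1 in 27 of 40 pairs (-0.12 to 0.61, median 0.14). Replicate number thus went with part of the spread there, and the main fits held no term for it. In the NRF, L-GRKO, L-IRSdKO, and obesity experiments r was over 0.1 in 0 of 6, 1 of 4, 0 of 4, and 3 of 18 pairs. With a replicate block the count was 0 for the uninjected meal (Cyp4a14, adjusted p = 0.0243), 2 for dex (with Cyp4a12b, 0.0338), 2 for S961 (with Cyp4a10, 0.0331), 3 for dex with S961 (with Cyp4a14, 0.0279), 3 for GR loss (with Cyp4a32, 0.0286), and 1 for the lean meal (Cyp4a31, 0.00935).

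With each library left out in turn, the count ranged from 0 to 1 for the uninjected meal, ZT10 to ZT14-fed, and both agents fed against unfed, 0 to 2 for dex, 0 to 4 for S961, dex with S961, and the lean meal, 2 to 3 for S961 on dex, 0 to 3 for GR loss, and 3 to 5 for Irs1 and Irs2 loss, and was 0 in all other comparisons. Where 1 liver remained in a group, it was taken to vary like the others. Among all genes called, median-ratio scaling moved the share that was higher from 81.5% to 46.3% for the vehicle-injected meal, from 31.5% to 61.1% for dex, from 25.5% to 60.6% for dex with S961, and from 66.7% to 43.9% for GR loss. The numbers of GR and FOXO1 peaks within 20 kb were 10 and 7, and within 100 kb 13 and 7.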
